A study of Mus musculus with 8 samples.

Results

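The Fos and Jun genes encode the proteins of the transcription factor AP-1. All probe sets whose annotation gave 1 gene symbol and whose symbol was Fos, Fosb, Fosl1, Fosl2, Jun, Junb or Jund were taken from the signal table, which gave 9 probe sets for 7 genes out of 12422 probe sets without array controls. Fos and Junb had 2 probe sets each and the other genes 1. No probe set named a member beside another gene. The tissue was visual cortex of wild-type C57Bl6 mice, which had 1 eye removed at postnatal day 20 and were killed at postnatal day 24, 4 days later. Deprived cortex was the hemisphere opposite the removed eye, and non-deprived cortex the hemisphere on the same side, of operated mice as well. There were 4 deprived and 4 non-deprived arrays, numbered 1 to 4 in each group. The labels mention 4 mice and also pooled samples, so whether an array holds 1 animal is unclear. P-values set a group difference only against the spread among these samples, and that spread may be technical. No cortex of unoperated mice was available for comparison here.

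AP-1 is a dimer of basic leucine zipper proteins. Fos proteins bind DNA only as partners of a Jun protein or of another zipper protein, whereas Jun proteins also pair with each other. In neurons Fos, Fosb and Junb are immediate-early genes, transcribed within minutes of synaptic activity through the factors CREB and SRF without new protein synthesis, and Fos is widely used to mark active cells in visual cortex. Jund is known as the member with the steadiest expression.

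The stretches around the annotated gene starts of Fos, Fosb, Junb and Jun are shown first. Each runs 5′ to 3′ on the gene's strand from 250 bases before the start to 50 bases after it, from RefSeq on GRCm38.p6. Fos lies at chr12:85473640-85473939 (plus strand), Fosb at chr7:19309996-19310295 (minus strand), Junb at chr8:84978699-84978998 (minus strand) and Jun at chr4:95052173-95052472 (minus strand). Capitals mark TGACG (the core of the site bound by CREB), TGACATCA (the AP-1-like site known from the Jun promoter) and TATAAA.
Fos: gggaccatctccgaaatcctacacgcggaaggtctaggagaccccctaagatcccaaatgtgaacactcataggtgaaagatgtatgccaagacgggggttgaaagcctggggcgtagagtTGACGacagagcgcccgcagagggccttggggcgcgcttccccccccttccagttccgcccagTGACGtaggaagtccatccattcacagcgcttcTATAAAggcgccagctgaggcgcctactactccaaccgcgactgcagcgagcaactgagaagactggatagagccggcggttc
Fosb: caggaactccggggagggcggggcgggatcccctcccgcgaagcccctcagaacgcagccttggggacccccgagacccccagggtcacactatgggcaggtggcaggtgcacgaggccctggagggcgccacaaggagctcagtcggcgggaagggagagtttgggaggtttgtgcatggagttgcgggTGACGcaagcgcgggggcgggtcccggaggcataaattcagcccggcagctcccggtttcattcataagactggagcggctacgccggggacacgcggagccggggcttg
Junb: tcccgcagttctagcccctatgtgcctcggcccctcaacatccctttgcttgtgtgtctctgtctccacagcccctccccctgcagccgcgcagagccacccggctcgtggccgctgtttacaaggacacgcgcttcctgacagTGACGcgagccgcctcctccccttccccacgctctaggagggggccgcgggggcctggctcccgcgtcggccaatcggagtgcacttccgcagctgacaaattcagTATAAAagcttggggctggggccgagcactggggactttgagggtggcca
Jun: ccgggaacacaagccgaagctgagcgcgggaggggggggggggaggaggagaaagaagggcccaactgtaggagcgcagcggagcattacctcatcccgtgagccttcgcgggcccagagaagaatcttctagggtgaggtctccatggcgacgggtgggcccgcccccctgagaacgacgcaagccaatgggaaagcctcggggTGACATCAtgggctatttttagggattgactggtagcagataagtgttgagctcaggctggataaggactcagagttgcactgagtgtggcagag

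A RefSeq window was at hand for 6 of the 7 genes, Fosl1 being the exception. TGACG, searched on both strands, lay in the windows of Fos, Fosb and Junb and in 21.0% of 27025 windows of the same length, but not in those of Jun, Fosl2 and Jund. In Fos it began 129 and 66 bases before the start, in Fosb 60 and in Junb 106. TGACATCA on both strands began 45 bases before the start of Jun and occurred in 3.76% of windows. TATAAA on the gene strand began 33 bases before the start of Fos and at the annotated first base of Junb, and occurred in 8.88% of windows. The full CRE, TGACGTCA, lay in 1.88% of windows and the AP-1 site TGANTCA in 7.93%, with no match in a member's window for either. TGACG is contained in TGACGTCA, so a match to the longer motif is also a match to the shorter. The share of G and C was 58.7% in Fos, 68.3% in Fosb, 64.7% in Fosl2, 65.3% in Junb and 60.0% in Jun, above the median of 52.7%. In Jund it was 46.7%, below the median. These matches describe letters and not binding, and whether they bear on the differences between hemispheres was not tested.

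The deposited values were linear MAS5 signals, each array having been scaled to a common trimmed mean. Differences are of log2(signal + 15.2), the added constant being the 10th percentile of all signals, and understate the change of dim genes. Groups were compared with limma on the 7453 probe sets whose average log2 value exceeded the 40th percentile of all averages, a signal of about 110. Of the members, 7 probe sets of 6 genes passed this filter. The probe set of Fosl1 and 1 of the 2 of Fos did not.

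Fos, Junb and Fosb had lower signals in deprived cortex, at 0.541 to 0.676 of the non-deprived level, and no other member showed a difference as clear. In limma with Benjamini-Hochberg adjustment over all 7453 probe sets none of the 7 tested member probe sets passed a threshold of 0.05, and 0.0% of all probe sets passed as lower and 0.0% as higher. By an unadjusted p under 0.05, 4 of the 7 member probe sets were lower, against 1.22% of all probe sets, and none were higher, against 1.45%. These 4 were 1 probe set of Fos, both of Junb and the 1 of Fosb. Ordered by unadjusted p among the 7453, the Fos probe set was at rank 1 and the brighter Junb probe set at rank 2, with Fosb at rank 22 and the dimmer Junb probe set at rank 23. The members were chosen with earlier results of these data known, so their ranks and shares, here and below, are only a description. The median log2 difference of the 7 member probe sets was -0.56, against 0.024 over all tested probe sets. In tissue RNA, fewer cells that express a gene and less of its RNA per cell cannot be told apart.

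**Figure D1:**
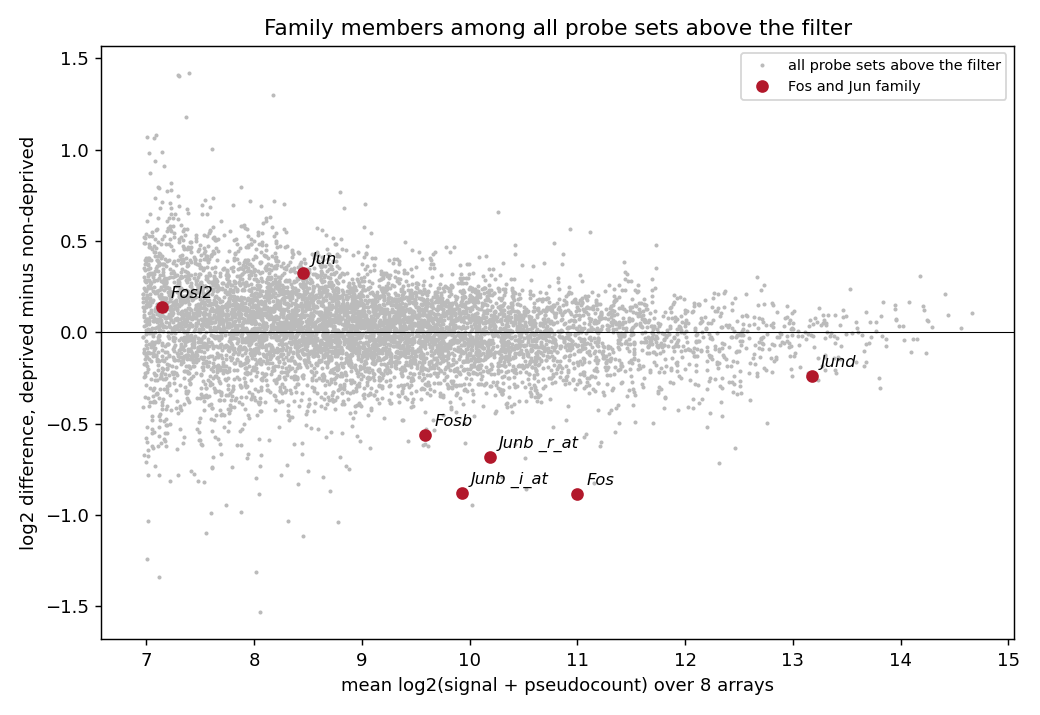
Log2 difference, deprived minus non-deprived, against mean log2(signal + pseudocount) over 8 arrays, with a grey point for each of the 7453 probe sets above the filter and a red point for each of the 7 of the Fos and Jun family. Fos (-0.89), both Junb probe sets (-0.88 and -0.68) and Fosb (-0.56) lie at or below the lower edge of the cloud at their level. Jun (0.32), Jund (-0.24) and Fosl2 (0.14) lie within or at the edge of the cloud.

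Fos, the founding member of its family, had signals of 1273, 1501, 1669 and 1538 in deprived cortex, against 2425, 3776, 2317 and 2755 in non-deprived cortex (probe set 160901_at, replicates 1 to 4). The groups did not overlap, and the highest non-deprived value, of replicate 2, stood well above the other 3. Means were 1495 ± 165 and 2818 ± 665 in deprived and non-deprived cortex (SD, n = 4 each). The log2 difference was -0.89 ± 0.17 (SE), with a 95% interval of -1.25 to -0.52 and a limma adjusted p of 0.995. The deprived sample was lower in 4 of 4 same-numbered pairs, by -0.47 in pair 3 to -1.32 in pair 2.

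Fosb, a close relative of Fos that also gives rise to the shorter and stable protein deltaFosB by splicing, had signals of 609.7, 654.1, 725.1 and 504.5 in deprived cortex, against 725.6, 1076, 913.4 and 1010 in non-deprived cortex. The groups did not overlap, but only just, since deprived replicate 3 lay at 725.1 and non-deprived replicate 1 at 725.6. Means were 623.4 ± 92.4 in deprived and 931.2 ± 152 in non-deprived cortex (SD, n = 4 each). The log2 difference was -0.56 ± 0.17 (SE), a fold of 0.676 with a 95% interval of 0.525 to 0.871 (limma adjusted p = 0.995). The deprived sample was lower in every pair, 4 of 4, and the pair values spread from -0.25 to -0.98. The annotation used does not say which Fosb isoform the probe set reads.

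Junb, a Jun protein that pairs with Fos and activates many sites more weakly than Jun does, was read by 2 probe sets designed from the same sequence entry. The brighter, 102363_r_at, had signals of 833, 822.7, 866.2 and 1129 in deprived cortex, against 1331, 1366, 1515 and 1648 in non-deprived cortex. The groups did not overlap, and replicate 4 was the highest of both groups. Means were 912.8 ± 145 and 1465 ± 146 in deprived and non-deprived cortex (SD, n = 4 each), with a log2 difference of -0.68 ± 0.15 (SE). Its 4 pair values were the most uniform of any member, at -0.54 to -0.80.

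The other Junb probe set, 102362_i_at, had signals of 951.5, 471.5, 519.8 and 1034 in deprived cortex, against 1434, 1197, 993.6 and 1685 in non-deprived cortex. Here the groups overlapped, as deprived replicate 4 lay above non-deprived replicate 3. Its log2 difference was -0.88 ± 0.26 (SE), with pair values of -0.58 to -1.32, so both probe sets were lower in 4 of 4 pairs. The log2 difference between these probe sets within an array shifted by 0.20 between groups, less than its SD of 0.47 in deprived and 0.32 in non-deprived arrays (n = 4 each). Replicates 1 and 4 were high and replicates 2 and 3 low on 102362_i_at in both groups, and the SE of its difference was 0.14 with the replicate number as a block, against 0.26 without it.

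Without overlap and lower in deprived cortex were 3 of the 7 member probe sets above the filter, against 0.805% of all probe sets, and none were without overlap and higher, against 1.23%. Lower in 4 of 4 pairs were 4 of the 7, against 6.92% of all probe sets, and none were higher in 4 of 4, against 8.95%. With the replicate number as a block, limma gave an adjusted p of 0.116 for Fos and for each of the Junb probe sets, the smallest value of that fit, which 6 probe sets shared. Fosb had 0.601. In that fit 4 member probe sets had an unadjusted p under 0.05 and were lower, against 3.65% of all, and none higher, against 3.38%.

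**Figure D2:**
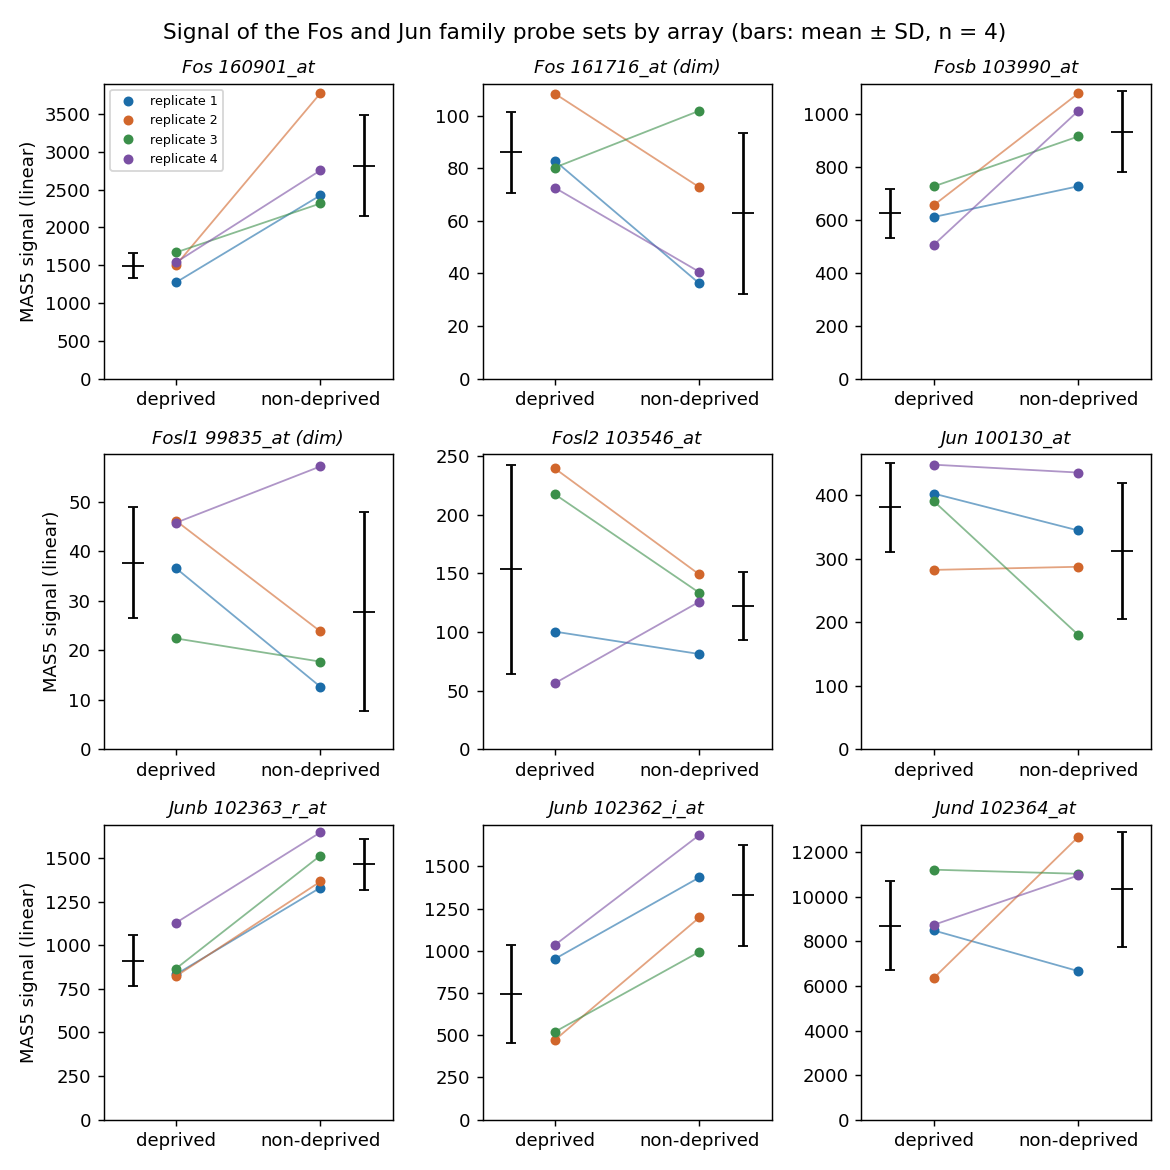
Linear MAS5 signal of each of the 9 probe sets in deprived and non-deprived cortex, with lines joining arrays of the same number and bars giving mean ± SD (n = 4). All 4 lines run upward to non-deprived cortex for Fos 160901_at, Fosb and both Junb probe sets, and the lines of the others run in both directions.

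Jun, the partner that forms the classical AP-1 dimer with Fos, was not lower in deprived cortex. It had signals of 402.5, 282.3, 390.6 and 448 in deprived cortex, against 344.4, 287.2, 180 and 435.6 in non-deprived cortex. The groups overlapped, and non-deprived replicate 3 was far below the other samples. Means were 380.9 ± 70.2 in deprived and 311.8 ± 107 in non-deprived cortex (SD, n = 4 each). The log2 difference was 0.32 ± 0.25 (SE), a fold of 1.25 with a 95% interval of 0.857 to 1.82 (limma adjusted p = 0.995). Pair 3 had 1.06 and the other pairs -0.02 to 0.22, and without non-deprived replicate 3 the difference was 0.10.

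Jund, which is present in most cells without stimulation, had signals of 8489, 6353, 11215 and 8740 in deprived cortex, against 6666, 12687, 11031 and 10957 in non-deprived cortex. The groups overlapped, with the deprived sample lower in 2 of 4 pairs. The log2 difference was -0.24 ± 0.21 (SE), a fold of 0.848 with a 95% interval of 0.613 to 1.17 (limma adjusted p = 0.995). Pair values ran from -1.0 in pair 2 to 0.35 in pair 1. The interval includes no difference and also the fold of 0.676 found for Fosb, so it does not show that Jund was equal in both hemispheres.

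Fosl2, which encodes the Fos-related protein Fra-2, was close to the filter signal. It had 100.2, 239.3, 217.3 and 56.2 in deprived cortex, against 81.1, 148.9, 133.3 and 125.7 in non-deprived cortex. The deprived values enclosed the non-deprived ones, since replicates 2 and 3 were above and replicate 4 below them. The log2 difference was 0.14 ± 0.39 (SE), a fold of 1.10 with a 95% interval of 0.615 to 1.98, and pair 4 alone was negative, at -0.98. Its sign turned without deprived replicate 2 (-0.12), without deprived replicate 3 (-0.08) and without non-deprived replicate 1 (-0.02).

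Fosl1, which encodes the Fos-related protein Fra-1, was dim in all arrays. It had 36.6, 46.2, 22.4 and 45.8 in deprived cortex, against 12.6, 23.8, 17.7 and 57.2 in non-deprived cortex. The groups overlapped, and non-deprived replicate 4 was the highest of all 8 values. In the fit with no filter the log2 difference was 0.37 ± 0.33 (SE, limma adjusted p = 0.974).

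The dim Fos probe set 161716_at had 82.9, 108.4, 80.3 and 72.6 in deprived cortex, against 36.2, 72.8, 101.9 and 40.6 in non-deprived cortex. The groups overlapped, and the deprived value was the higher in 3 of 4 pairs, opposite to the bright Fos probe set. In the fit with no filter the log2 difference was 0.45 ± 0.32 (SE, limma adjusted p = 0.974). Its 95% interval of -0.25 to 1.14 includes 0, and all its values lay below the filter signal of about 110. The annotation used lists no sequence entry for the dim probe set.

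Dim probe sets as a whole lay higher in deprived arrays. Of the 4969 below the filter, 69.8% had a log2 difference above 0, with a median of 0.17, against 54.9% of those above it. The 10th percentile of signal was 17.2 ± 2.68 in deprived and 13.5 ± 0.718 in non-deprived arrays (SD, n = 4 each, two-sided exact permutation p = 0.0286, the smallest possible). After quantile scaling, by which every array gets an identical distribution, the dim Fos probe set had 0.31 and Fosl1 0.22. Their differences are given beside this shift, whose part in them was not tested.

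**Figure D3:**
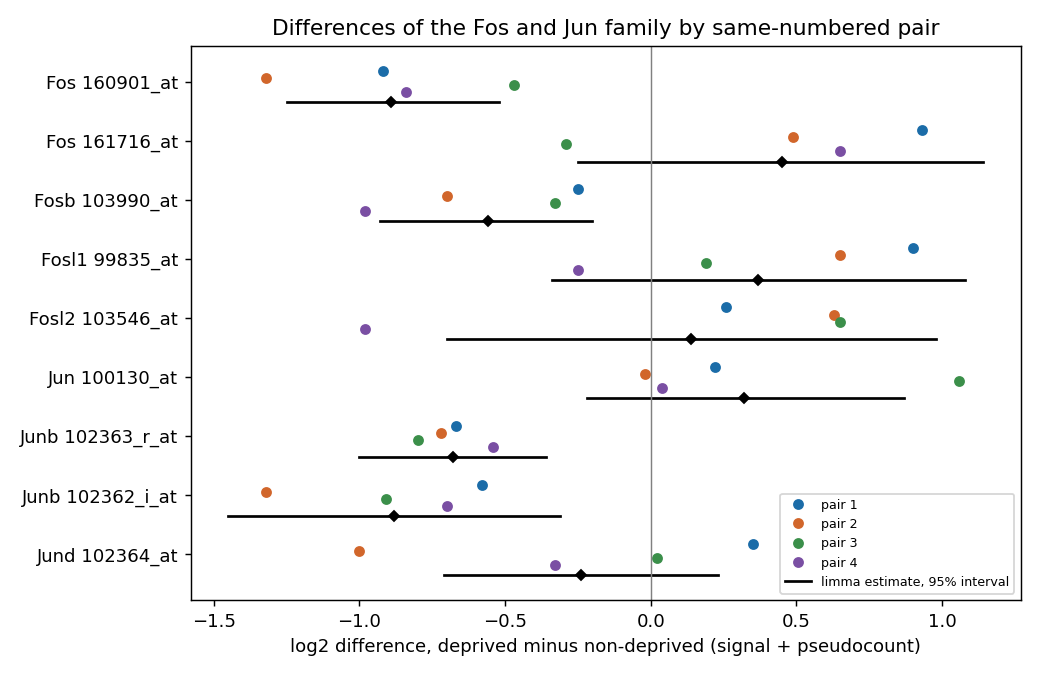
Log2 difference, deprived minus non-deprived, of each of the 9 probe sets in the 4 same-numbered pairs (coloured points), with limma's estimate and its 95% interval (black). Fos 160901_at, Fosb and both Junb probe sets have all points and intervals below 0, and the intervals of the other 5 include 0.

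Whether members differed from each other in their response was asked by setting 1 member against another within each array and comparing that log2 difference between groups. There were 6 such contrasts, with the brighter probe set of each gene, tested by two-sided exact permutation over 70 assignments and adjusted over the 6 by Benjamini-Hochberg. None passed after adjustment. As the members were chosen with earlier results of these data known, the p-values of these contrasts are also only a description. Fos exceeded Jun by 1.62, 2.35, 2.05 and 1.75 in deprived cortex, against 2.76, 3.65, 3.58 and 2.62 in non-deprived cortex. The groups did not overlap, and the shift of -1.21 ± 0.31 (SE) had an exact p of 0.0286, the smallest possible, and an adjusted p of 0.0857. Every pair, 4 of 4, had a lower value in its deprived sample, with shifts of -0.87 to -1.53. The two-sided exact sign-flip p over pairs was 0.125, also the smallest possible.

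Junb exceeded Jun by 1.23 ± 0.21 in deprived and 2.24 ± 0.51 in non-deprived cortex (log2, SD, n = 4 each), again without overlap. The shift of -1.0 ± 0.27 (SE) had an exact p of 0.0286 and an adjusted p of 0.0857, was lower in 4 of 4 pairs, and was -0.76 without non-deprived replicate 3, the sample with the lowest Jun signal. This contrast and Fos minus Jun use the same Jun values and are not independent. Against Jund the shifts were smaller and the groups overlapped. Fos minus Jund shifted by -0.65 ± 0.23 (SE, exact p = 0.0571, adjusted p = 0.114) and Junb minus Jund by -0.44 ± 0.26 (SE, exact p = 0.143, adjusted p = 0.171).

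Among the genes with lower signals no member stood clearly apart. Fos minus Fosb shifted by -0.32 ± 0.16 (SE, exact p = 0.114, adjusted p = 0.171), lower in 3 of 4 pairs. Fos minus Junb shifted by -0.21 ± 0.22 (SE, exact p = 0.429, adjusted p = 0.429), and by -0.01 with the other Junb probe set, an alternative chosen after the data were seen. At 4 arrays a group these values do not show that Fos, Fosb and Junb responded alike.

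**Figure D4:**
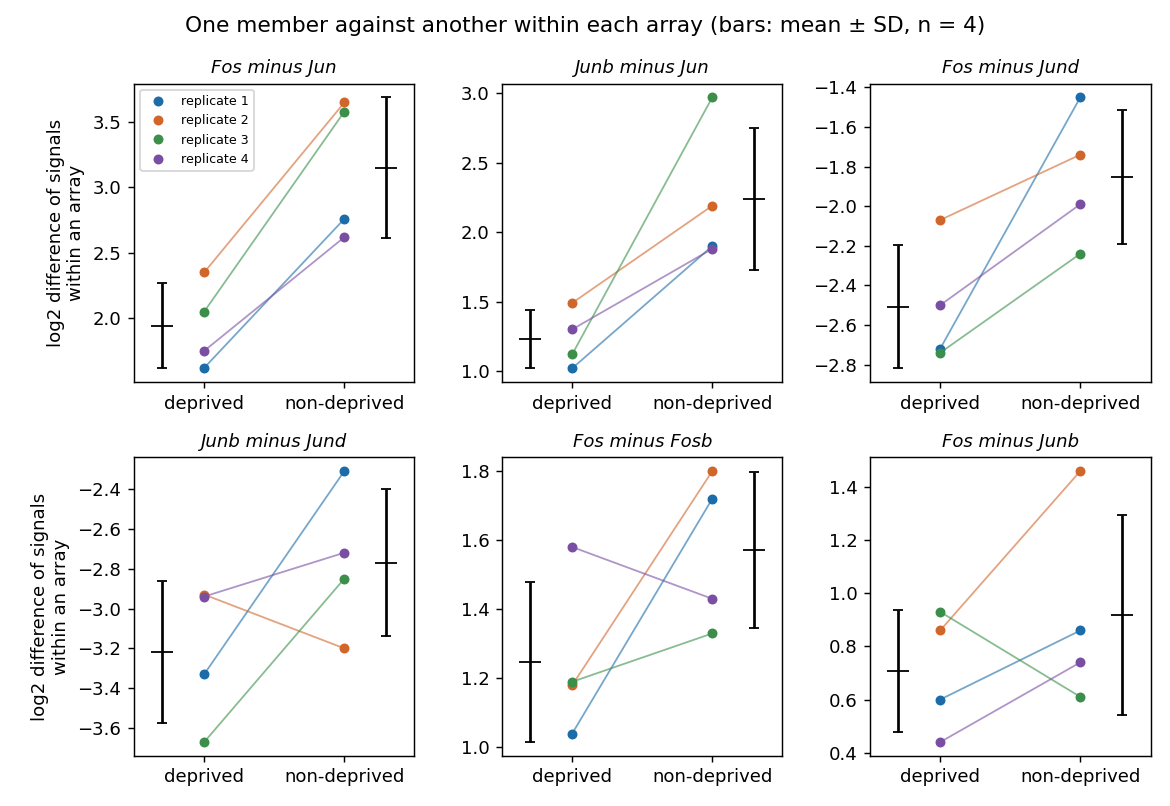
Log2 difference of 2 members' signals within each array, in deprived and non-deprived cortex, for the 6 contrasts, with lines joining arrays of the same number and bars giving mean ± SD (n = 4). For Fos minus Jun and Junb minus Jun every deprived value lies below every non-deprived one, and in the other 4 contrasts the groups overlap.

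The genes whose signal followed a member most closely over the 8 arrays were found by Pearson's r among 6751 single-symbol probe sets above the filter, as a description. Those most like Fos were Nfil3 (r = 0.979), the orphan nuclear receptor gene Nr4a1 (0.963), the zinc-finger gene Egr2 (0.954), the MAP kinase phosphatase gene Dusp6 (0.927) and the metalloprotease gene Adam19 (0.91). Nfil3, which encodes another basic leucine zipper factor, had signals of 103.9 ± 6.15 in deprived and 159.5 ± 15.8 in non-deprived cortex (SD, n = 4 each). Its mean in deprived cortex was below the filter signal of about 110. The genes were chosen for this likeness, so their own group differences are no separate result.

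Those most like Junb were the adrenergic receptor gene Adra1b (r = 0.954), Scamp3 (0.936), the heparan sulfate sulfotransferase gene Hs3st1 (0.935), Btg2, an antiproliferative gene (0.933), and Tmem109 (0.933). Those most like Jun were Cblif (0.97), G6pc3 (0.931), Rce1 (0.923), Aamp (0.921) and Mrpl39 (0.919). No gene was among the 5 nearest of more than 1 of these members.

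Other zipper proteins that can pair with Fos or Jun gave no difference that passed. Of 14 such genes 11 were on the array and 8 above the filter. None had an adjusted or an unadjusted p under 0.05 in limma, with or without the replicate block, 6 lay below 0 and the median log2 difference was -0.06, against 0.024 over all probe sets. Atf4, a factor of the stress response, had signals of 1963 ± 277 in deprived and 2282 ± 259 in non-deprived cortex (SD, n = 4 each), lower in 4 of 4 pairs. Atf2, a partner of Jun, had 2453 ± 310 and 2180 ± 277 in deprived and non-deprived cortex, lower in none. Mafk, a small Maf protein gene, had a log2 difference of -0.29 ± 0.32 (SE), and Maff, a dim one, 0.29 ± 0.30.

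Of 27 kinases and factors that act upstream of Fos and Jun, 18 were on the array and 14 above the filter, with 0 at an adjusted or an unadjusted p under 0.05 in limma, 5 below 0 and a median of 0.05. Mapk8, which encodes the kinase JNK1 that phosphorylates Jun, had a log2 difference of 0.25 ± 0.20 (SE), and Mef2d, an activity-regulated factor, 0.30 ± 0.21, higher in 4 of 4 pairs. With the replicate block Mef2d alone of the 14 had an unadjusted p under 0.05 in limma (0.0237), and 0 passed after adjustment. In that fit 3.38% of all probe sets above the filter were higher at an unadjusted p under 0.05. Mef2a had 0.19 ± 0.15. Creb1, whose protein binds the CRE, was dim, at 0.37 ± 0.31 in the fit with no filter.

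Of 19 textbook targets of AP-1, 18 were on the array and 9 above the filter. Of these 9, 0 had an adjusted or an unadjusted p under 0.05 in limma, 5 lay below 0 and the median was -0.03. Penk, the enkephalin precursor gene, had signals of 1044 ± 231 in deprived and 1444 ± 482 in non-deprived cortex (SD, n = 4 each), lower in 4 of 4 pairs at a log2 difference of -0.43 ± 0.22 (SE). With the replicate block Penk alone of the 9 had an unadjusted p under 0.05 in limma (0.0281), and 0 passed after adjustment. In that fit 3.65% of all probe sets above the filter were lower at an unadjusted p under 0.05. The dim Plaur, the urokinase receptor gene, had 39.3 ± 13.9 in deprived and 18.95 ± 3.86 in non-deprived cortex and was higher in 4 of 4 pairs. In the fit with no filter its limma p was 0.0237 unadjusted and 0.974 adjusted. As given above, dim probe sets as a whole were higher in deprived arrays. Mmp3, Mmp9, Mmp10 and Mmp13, the matrix metalloproteinase genes of this list, were all below the filter.

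Neuronal identity was checked with markers. Of 9 markers of excitatory cortical neurons 4 were on the array and all 4 were above the filter, among them the deep-layer factor Tbr1 at 4838 ± 699 in deprived and 5146 ± 1840 in non-deprived cortex, and all 5 general neuronal markers were above it (SD, n = 4 each). The summed signal of the general neuronal markers was 33151 to 39874 in deprived and 35354 to 40700 in non-deprived arrays and was lower in 4 of 4 pairs. That of 5 astrocyte markers was 9860 to 11415 and 10433 to 12303 in deprived and non-deprived arrays, also lower in 4 of 4 pairs. That of 4 thalamus markers, 1677 to 2010 and 1649 to 1840, was higher in 4 of 4. The 4 excitatory markers summed to 5383 to 7294 and 5263 to 9032, with the deprived array above its partner in 3 of 4. For 3 interneuron markers the sum was 6676 to 9611 and 6770 to 10707, above in 2 of 4. Oligodendrocyte, microglia, endothelium, blood and hippocampus sums were above in 1 to 3 of 4. Among single genes, Syt1 (log2 difference 0.03) and Gfap (0.08) lay above 0, while 4 general neuronal and 4 astrocyte markers lay below. Of the thalamus markers Tcf7l2 (0.32) and Calb2 (0.24) were higher in 4 of 4 pairs. Prkcd (0.07) was lower in 3 of 4, and Rora had -0.11. The sums weigh bright genes most, such as Snap25 (14741 ± 1470 in deprived and 15122 ± 1500 in non-deprived cortex) and Aldoc (7573 ± 473 and 7919 ± 793). In limma with the replicate block the astrocyte marker S100b (unadjusted p = 0.0381), Cldn5 of endothelium (0.0304) and Wfs1 of hippocampus (0.04) were lower. Tcf7l2 was higher (0.0397), and no marker passed after adjustment. In that fit 3.65% of all probe sets above the filter were lower and 3.38% higher at an unadjusted p under 0.05. The ranges of all these sums overlap, and the part of these shifts in the members' differences was not tested. None of the markers on the array was at 0 in all arrays, and the 3 choroid plexus markers were below the filter. The actin 3′ to 5′ ratio, a measure of RNA integrity, was 1.64 ± 0.239 in deprived and 1.39 ± 0.179 in non-deprived arrays (SD, n = 4 each). The Gapdh ratio was 0.842 ± 0.0345 in deprived and 0.898 ± 0.0543 in non-deprived arrays, and the exact permutation p was 0.171 for actin and 0.143 for Gapdh. By pairs, the actin ratio was higher in the deprived array in 3 of 4, and the Gapdh ratio was lower in 4 of 4. With the actin ratio as a covariate Fos had -0.91, Fosb -0.59 and the brighter Junb probe set -0.50, and with the Gapdh ratio they had -0.68, -0.53 and -0.63. The other Junb probe set had -0.60 with the actin and -0.61 with the Gapdh ratio, against -0.88 with no covariate. Jund had -0.01 with either ratio.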

How the data were processed

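Per the submitters' processing notes the authors used MAS5, and the deposited values are signal intensity on a linear scale. Neither the MAS5 version nor its parameters were stated. There were 12488 probe sets and 0 unused sample columns, and the 2% trimmed mean was 500.3 in every array. Each array was rescaled to that mean, 66 controls were removed and log2(signal + 15.2) was taken. Between arrays the log2 values had correlations of 0.948 to 0.975, and the number of arrays limits the precision. Of all probe sets 10833 had 1 symbol, of which 10817 were updated through Entrez identifiers to the GRCm38.p6 gene table. For lists, the probe set of the highest mean stood for a gene.

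Tests of group differences ran in R 4.3.3 with limma 3.58.1 (linear model, moderated by an intensity trend, two-sided, Benjamini-Hochberg over all probe sets above the filter), tested on simulated data first. Contrasts and figures used Python 3.11.15 and matplotlib 3.10.9. Genes named are all members, the 5 most like Fos, Junb and Jun, and up to 4 list genes with the smallest unadjusted p. Mmp9, Mmp13, single marker genes and Tmem129 are named outside this rule. The members and lists were chosen with earlier results of these data known. That equal numbers mean the same mouse is not in the labels. Deviations from group means correlated at 0.16 to 0.42 between same-numbered samples, and -0.27 to 0.12 between others, so, with all 4 pairs above 0.1, pair values are given. Alternatives were other pseudocounts, scalings, filters, weights and variance models, the replicate block, RNA integrity covariates, and each array or pair left out.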

Additional observations from a re-analysis of the deposited data

Results flagged for a closer look

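In the brighter Junb probe set, 102363_r_at, deprived replicate 4 stood far from the other 3 deprived arrays, its gap to the nearest being 0.838 of the group's range on the log2 scale, above the critical value of 0.829. Its signal was 1129, against 822.7 to 866.2 in the others, and the log2 difference without it was -0.79. Among 30 groups looked at this was the only 1, and by chance about 1 in 20 is picked out.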

How the results depend on the processing

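None of the 198 member values under 22 alternatives passed the adjusted threshold in limma. The differences of both Fos probe sets, Fosb, Fosl1, Jun and both Junb probe sets kept their sign under all 22. Leaving out 1 array gave -0.97 to -0.74 for the bright Fos probe set, -0.68 to -0.47 for Fosb, -0.79 to -0.62 and -1.06 to -0.69 for the Junb probe sets, 0.10 to 0.50 for Jun and -0.43 to -0.10 for Jund. Fosl2 turned to -0.25 with the actin and -0.15 with the Gapdh ratio as a covariate, and ran from -0.12 to 0.49 with 1 array left out and from -0.03 to 0.51 with the block and 1 pair left out (-0.02 without pair 2). Jund ran from -0.43 to 0.02 with the block and 1 pair left out, positive without pair 2. With the replicate block, 0 probe sets passed in either direction, with 524 at an unadjusted p under 0.05 against 199 without it, and with 1 pair left out also 0 to 1 higher (Tmem129, without pair 4). With 1 array left out none passed. The block changed no member's call, and its smallest adjusted p for a member was 0.087, for Fos without pair 3. The 6 contrasts stayed short of the threshold under other pseudocounts, scalings and the other Junb probe set. With 1 array left out (35 assignments, smallest exact p 0.0286) none passed either: Fos minus Jun ran from -1.39 to -1.04 and Junb minus Jun from -1.12 to -0.76, with adjusted p of 0.0857 to 0.171 for each.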
